A study of Mus musculus with 3 samples.

Results

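On mouse chromosome 3, the stretch from 90 to 95 Mb held 277 single-base substitutions at which all 3 haploid embryonic stem cell lines of the study carried the same base in place of the reference base. They were chosen from a deposited table of exonic single-nucleotide variants by their read counts: at least 10 reads in each line, with the alternate base on at least 0.8 of the reference plus alternate reads in each line. Entries for olfactory and vomeronasal receptor genes (Olfr and Vmn) were left out and each position was counted once. The 277 fixed substitutions were part of 532 single-base positions listed in the stretch, and of 3765 fixed substitutions in the whole table. The same rule was met by 52.1% of the positions of the stretch and by 36.0% of the 10452 positions of the whole table. These counts describe the choice and carry no test.

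Whole-genome sequencing gave 1 library for each of the 3 lines. The parental line, O48 (WT, passage 40), is an androgenetic haploid ESC line, so its single genome is of paternal origin, and the H19 and IG differentially methylated regions were deleted in it. ΔDSM-O48-1 (passage 60) was derived from it and carries mutations in Dmpk, Six5 and Mbnl1. ΔDSMD-O48-2 (passage 70) carries a mutation in Dmwd in addition. All 3 lines lack both regions, are labelled C57BL/6 and were grown in 2i/Lif medium, which keeps ESCs undifferentiated, and the mutant lines were single clones. None of the targeted genes lies in the stretch. The lines descend from one another, so they are not replicates of a condition, and no value below has a replicate error.

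The stretch contains the epidermal differentiation complex, a cluster of genes for proteins of the cornified layer of the skin. S100 proteins are small calcium-binding proteins. Fused-type S100 proteins such as filaggrin, hornerin and trichohyalin join an S100-like start to long runs of repeats and bundle or coat keratin filaments. Small proline-rich (SPRR) and late cornified envelope (LCE) proteins are cross-linked into the envelope that replaces the plasma membrane of dying keratinocytes. Among the genes of the complex and after them lie TD and POZ genes, close copies of a gene for an adaptor of ubiquitin ligases. The data are of DNA and hold no value of the expression of these genes in ESCs.

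The sequences that carry the coding findings are shown first, as 25 bases on the coding strand of the gene, 5′ to 3′, from the RefSeq build GRCm38.p6. Capitals mark every fixed substitution in the window, with the reference base in the first line and the base of the 3 ESC lines in the second. The reference base of the table was that of this build at 277 of 277 fixed substitutions and at 532 of 532 positions of the stretch.

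Missense changes in LCE and cornified envelope genes are shown because they are the fixed amino acid changes outside the repeat-rich genes of the complex. Lce1f R85H lies at chr3:92719083-92719107, Kprp Y94C at chr3:92825449-92825473 and Kprp K44Q at chr3:92825600-92825624, all on the minus strand, and Lce3f G87D lies at chr3:92993121-92993145 on the plus strand.
Lce1f R85H, reference: accacagaccccGcagatctcttcg
Lce1f R85H, all 3 lines: accacagaccccAcagatctcttcg
Kprp Y94C, reference: cccaggtgaaatAccagcctaagac
Kprp Y94C, all 3 lines: cccaggtgaaatGccagcctaagac
Kprp K44Q, reference: ccatgtgagatgAaagttctggaat
Kprp K44Q, all 3 lines: ccatgtgagatgCaagttctggaat
Lce3f G87D, reference: agcagtctggggGCtcaggctgtgg
Lce3f G87D, all 3 lines: agcagtctggggATtcaggctgtgg
Codons that hold 2 fixed substitutions are shown because the table annotates each base alone, whereas the haploid lines carry both. Besides Lce3f G87D above, they lay in Gm4858 (chr3:93074502-93074526), Tdpoz3 (chr3:93826407-93826431) and C2cd4d (chr3:94363589-94363613), all on the plus strand.
Gm4858 codon 206, reference: tgGatgtcaatgAGggagtcacatc
Gm4858 codon 206, all 3 lines: tgTatgtcaatgGTggagtcacatc
Tdpoz3 codon 134, reference: ctcctTtcccatATgaattggtttc
Tdpoz3 codon 134, all 3 lines: ctcctCtcccatCAgaattggtttc
C2cd4d codon 58, reference: cgcctcggctccGGgacccaagagg
C2cd4d codon 58, all 3 lines: cgcctcggctccCAgacccaagagg
The positions listed as stop-loss in Flg2, at chr3:93214484-93214508 and chr3:93214641-93214665 on the plus strand, are shown because their listed effect depends on the reading frame. The first window also holds 1 mixed-allele position, printed with the reference base.
Flg2 T93214496C, reference: gtctggctctggTagatctcaaagg
Flg2 T93214496C, all 3 lines: gtctggctctggCagatctcaaagg
Flg2 G93214653C, reference: cggggcagacctGaagggccctctc
Flg2 G93214653C, all 3 lines: cggggcagacctCaagggccctctc
The amino acid changes with the lowest BLOSUM62 score that RefSeq's curated coding sequences also gave are shown last. BLOSUM62 scores how often an amino acid replaces another in related proteins, and a negative score marks a rare replacement. They lay in Nup210l (chr3:90104219-90104243), Tdpoz4 (chr3:93796513-93796537) and Tdpoz3 (chr3:93826486-93826510) on the plus strand and in Gm10696 (chr3:94176481-94176505) on the minus strand.
Nup210l A19T and L22H, reference: tgGctccacaccTcttcttcctgtt
Nup210l A19T and L22H, all 3 lines: tgActccacaccActtcttcctgtt
Tdpoz4 L43P, reference: atattacaagccTagtgttctcatt
Tdpoz4 L43P, all 3 lines: atattacaagccCagtgttctcatt
Tdpoz3 V160G, reference: ttgacatgcctgTacagaagaggac
Tdpoz3 V160G, all 3 lines: ttgacatgcctgGacagaagaggac
Gm10696 D4Y, reference: gaaatgtcaggaGacatggaagcca
Gm10696 D4Y, all 3 lines: gaaatgtcaggaTacatggaagcca
The 277 fixed substitutions lay in 62 genes of the table. With each position counted under 1 gene, 26 genes held a nonsynonymous change. Rfx5, which has 1 by its own entries and shares its positions with id51728, is not among these 26. By the listed effect of highest impact, 99 of the 277 were in 3′ UTRs, 19 in 5′ UTRs, 88 nonsynonymous and 68 synonymous. The others were 2 stop-loss changes and 1 stop-gain. The share in 3′ UTRs was 35.7% (95% exact Clopper-Pearson interval 30.1 to 41.7%), against 34.7% of all fixed substitutions of the table. The share in 5′ UTRs was 6.86% (4.18 to 10.5%), against 5.87%. Nonsynonymous changes made up 31.8%, against 27.8%, and synonymous changes 24.5%, against 28.2%. The stop-gain made up 0.361%, against 0.691%, and the stop-loss changes 0.722%, against 0.770%. Intervals cover counting error only, and neighbouring substitutions on 1 haplotype are not independent draws.

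Among substitutions listed as nonsynonymous or synonymous, 88 of 156 were nonsynonymous, or 56.4% (48.2 to 64.3%). This share was 49.6% over the whole table and 45.3% in the 85 to 90 Mb stretch of chromosome 3. It was 45.1% on chromosome 11 from 40 to 50 Mb, another stretch rich in fixed substitutions. All these shares use the listed effects, and 20 of the 88 lay outside a curated RefSeq coding sequence. Within the stretch, the 8 genes of the TD and POZ family held 33 nonsynonymous changes among 47 (70.2%, 55.1 to 82.7%) and all other genes held 55 among 109 (50.5%, 40.7 to 60.2%). The family held 81 of the 277 fixed substitutions (29.2%). The difference between these shares was not tested.

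**Figure D1:**
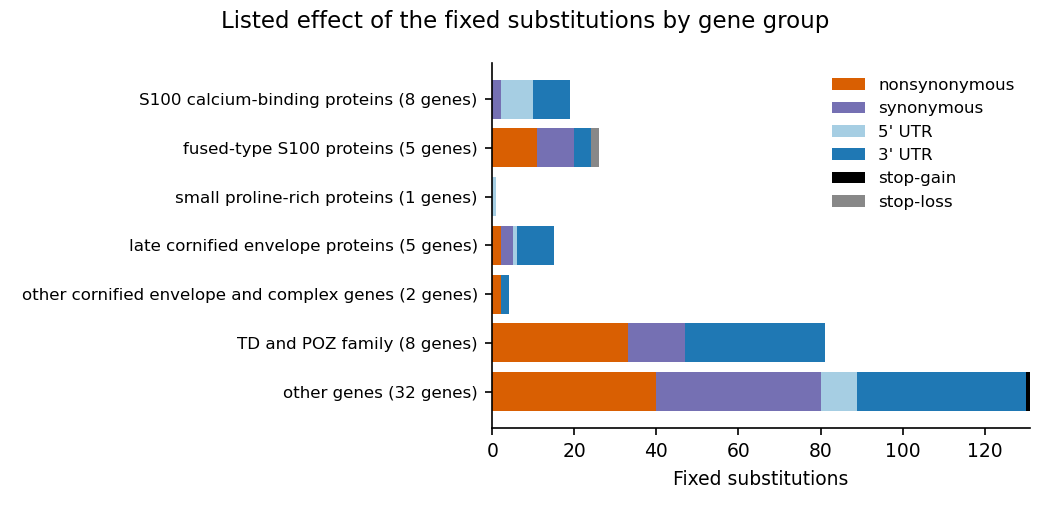
Number of fixed substitutions (horizontal axis) by gene group, with colours for the effect listed in the table and the number of genes with at least 1 fixed substitution in brackets. The S100 bar holds no nonsynonymous change, while the TD and POZ bar holds 33 among its 81.

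The S100 genes carried fixed substitutions outside the protein sequence. Of 14 S100 genes, 8 held 19 fixed substitutions, of which 9 were in 3′ UTRs, 8 in 5′ UTRs, 2 were synonymous and 0 were nonsynonymous. The synonymous ones were S100a14 E45 and S100a6 C3. S100a14 E45 had 33, 22 and 25 reads in O48, ΔDSM-O48-1 and ΔDSMD-O48-2 (the order kept for values given for all 3 lines below), and no line had a reference read there. S100a1, a calcium sensor of muscle, held 3 of the 5′ UTR substitutions within a short run, at positions 90514219, 90514225 and 90514229, with 47, 29 and 27 reads in the 3 lines at the first of them and 1 reference read, in ΔDSM-O48-1. The other genes with UTR substitutions were S100a16, S100a3, S100a4, S100a5, S100a6 and S100a7a, with 1 to 3 each. The remaining 6 S100 genes had no position of any kind in the table within the stretch.

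Of the 7 fused-type S100 genes, 5 held 26 fixed substitutions, of which 11 were nonsynonymous, 9 synonymous, 4 in 3′ UTRs and 2 stop-loss. Hornerin (Hrnr, chr3:93319749-93333572) held 8, among them L126I, P209Q, H2876R, N2900S and S2992G. Its depth was 20 to 44 reads per line, and 1 reference read, in O48, was seen over its 8 substitutions. Trichohyalin (Tchh), which hardens the inner root sheath of hair, held I54V and F458I with 19 to 37 reads per line and no reference read. Trichohyalin-like 1 (Tchhl1) held E517D and 2 synonymous changes with 21 to 40 reads per line and no reference read.

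The filaggrin genes also held many positions of mixed alleles. A position was called mixed-allele when it had at least 10 reads in each line and a share under 0.8 in at least 1 of them. Flg2 (chr3:93197273-93221377) held 8 fixed substitutions and 15 mixed-allele positions, and Flg (chr3:93273546-93293689) held 5 and 11. None of the 5 fixed substitutions listed under Flg was nonsynonymous: 4 were synonymous and 1 was in the 3′ UTR. A further 5 fixed substitutions listed under the unnamed entry id51470, among them P270S, E318A and S749I, lay in the coding sequence of a RefSeq model of Flg. Repetin (Rptn) held 2 mixed-allele positions and no fixed one, and cornulin (Crnn) held no listed position.

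The listed stop-loss changes of Flg2 were fixed by their reads. At T93214496C, listed as *1326Q, the 3 lines had 43, 40 and 30 reads, none with the reference base. At G93214653C, listed as *1378S, they had 28, 22 and 34 reads, with 1 reference read in ΔDSMD-O48-2. In the curated RefSeq coding sequence of Flg2, which reads through both positions without an internal stop, the first substitution was synonymous (G1325) and the second was E1378Q. Of the 8 fixed substitutions of Flg2, 5 had another amino acid change in RefSeq than in the table. W1391R and I2044V among them were synonymous there (A1390 and Q2043). In the other direction, A93214465G, listed as synonymous R1315, was D1315G in RefSeq. The remaining 3 had the same change in both, P906R being the nonsynonymous one, with 27, 38 and 19 reads in the 3 lines and no reference read.

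The single stop-gain, R268* in the unnamed entry id51728 (T94961247A), had 40, 46 and 31 reads in the 3 lines and no reference read. In RefSeq this position lies in the 3′ UTR of Rfx5, on the opposite strand, and not in a coding sequence. Rfx5 encodes a factor that switches on MHC class II genes. Of the other fixed substitutions of id51728, P632L (G94959097A) lay in the coding sequence of Rfx5, as R481Q, R544Q or R569Q by transcript, and V392A lay in its 3′ UTR. Thus 0 of the 3 stop changes listed among the fixed substitutions were stops in a curated RefSeq coding sequence.

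Of 21 LCE genes, 5 held 15 fixed substitutions: 9 in 3′ UTRs, 3 synonymous, 2 nonsynonymous and 1 in a 5′ UTR. Lce3f held 9 of them. Its G87D codon had 21, 19 and 26 reads in the 3 lines at both substituted bases, and GGC became GAT, which encodes D as the first base change alone does. Lce1f R85H had 36, 29 and 24 reads and no reference read. Of 16 SPRR genes, only Sprr2b held a fixed substitution, 1 base of its 5′ UTR (G92316738A). In 16 LCE and 14 SPRR genes the table listed no position at all. Sprr2a1 held 1 position, with under 10 reads in at least 1 line. Per 10 kb of RefSeq exon, the fixed substitutions numbered 10.4 in LCE genes, 0.589 in SPRR genes, 19.5 in S100 genes and 6.74 in fused-type S100 genes. The fused-type value counts 31 substitutions, because it includes the 5 of id51470 in the Flg model. The rate was 11.3 in all 114 protein-coding genes that lie whole in the stretch. It was 14.4 in the 50 of them outside the gene lists of the complex. These rates were not tested against each other.

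Among 8 further genes of the complex, Kprp, a proline-rich keratinocyte protein, held Y94C and K44Q, with 23, 33 and 24 reads at the first, 23, 26 and 23 at the second and no reference read at either. Pglyrp4, a peptidoglycan recognition protein, held 2 substitutions in its 3′ UTR. Over all 5 lists, 21 of 66 genes held 65 fixed substitutions, 15 of them nonsynonymous, and 42 genes had no listed position. With the 5 substitutions of id51470 that lie in the Flg model the totals were 70 and 18. By RefSeq exons, a fixed substitution lay in 31.8% of the 66 genes (20.9 to 44.4%). It lay in 53 of 114 (46.5%) of all protein-coding genes of the stretch, which include 64 of the 66. Among the 50 protein-coding genes outside the lists it lay in 32 (64.0%, 49.2 to 77.1%). The table lists only variant positions, so coverage of the genes without a position is not known from it.

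The TD and POZ genes held more fixed substitutions than any list of the epidermal complex, and 92 of the 140 mixed-allele positions of the stretch. Gm4858, named Tdpoz8 in RefSeq (chr3:93068823-93075505), held 47 fixed substitutions, the most of any gene: 21 nonsynonymous, 6 synonymous and 20 in the 3′ UTR. Tdpoz1 held 12, of which 11 were in the 3′ UTR and 1 was synonymous. Tdpoz4 held 9, Tdpoz3 and Gm9125 (Tdpoz9 in RefSeq) 4 each, Tdpoz2 3, and Gm10696 (Spopfm2 in RefSeq) and the pseudogene Gm9107 1 each. The mixed-allele positions were 23 in Gm4858, 22 in Tdpoz3, 16 in Tdpoz2, 14 in Tdpoz4, 10 in Gm10696 and 7 in Gm9125. Tdpoz1 and Gm9107 held none, but had 23 and 11 positions with under 10 reads or no genotype in at least 1 line. Reads of close copies can be placed on either copy, so counts of these genes are uncertain.

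Within Gm4858 the mixed and the fixed positions lay in separate blocks. Of its 23 mixed-allele positions, 5 lay in the first exon, and the other 18 followed after a break of 4590 bp and spanned 298 bp. The first fixed substitution came 116 bp after the last of them, and all 47 fixed substitutions lay in the next 1506 bp. At the 18 mixed-allele positions the depth was 41 to 116 reads in O48 (median 90.5), 34 to 85 in ΔDSM-O48-1 (median 77.5) and 33 to 71 in ΔDSMD-O48-2 (median 63.5). At the fixed substitutions it was 11 to 35 (median 24.0), 10 to 36 (median 21.0) and 10 to 37 (median 24.0). In each line, the last 5 of these 18 positions all had fewer reads than any of the 13 before them, with 41 to 51 reads in O48. Their share of alternate reads was 56.9 to 70.7% in O48, 56.5 to 68.6% in ΔDSM-O48-1 and 45.7 to 69.7% in ΔDSMD-O48-2. Of the 13 positions before them, T36 had 78.8, 76.9 and 76.2% in the 3 lines, and the other 12 had 22.1 to 38.7% in O48. The 5 positions of the first exon had 36 to 44 reads in O48 and shares of 5.13 to 9.3%. Thus the positions of highest depth were not in every case those of lowest share, and the part of depth in the calls was not tested.

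**Figure D2:**
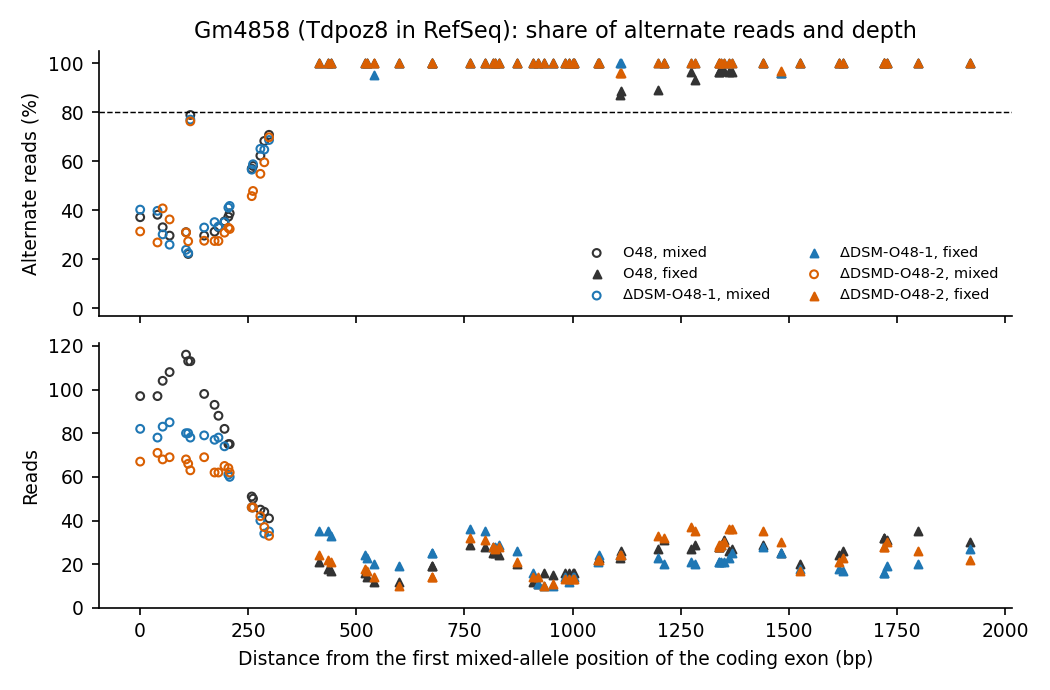
Share of alternate reads (upper panel, percent, dashed line at 80%) and number of reads (lower panel) at positions of Gm4858, against the distance in bp from the first mixed-allele position of the coding exon. Open circles are mixed-allele positions and filled triangles fixed substitutions, with a colour for each line. The 18 mixed-allele positions come first with 33 to 116 reads, and the 47 fixed substitutions follow with 10 to 37 reads.

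Reference reads at fixed substitutions of Gm4858 were not spread evenly over the lines. O48 had 19 reference reads among 1078 at 12 of the 47 positions, ΔDSM-O48-1 had 2 among 1035 at 2 positions and ΔDSMD-O48-2 had 3 among 1099 at 3 positions. Neighbouring positions share reads, so these counts are not independent. In Tdpoz4 they were alike in number: 35 of 492 in O48, 29 of 487 in ΔDSM-O48-1 and 30 of 438 in ΔDSMD-O48-2. At Tdpoz4 L312 the share of alternate reads was 81.5, 81.4 and 82.5%, and at K308 it was 85.2, 83.3 and 83.3%.

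A pair of fixed substitutions lay in 4 codons, and in 2 of them the amino acid encoded by both bases together was listed for neither base. In Gm4858 codon 206, listed as R206G and R206M, AGG became GTG and encoded R206V. The same codon is number 332 in a second RefSeq transcript. In Tdpoz3 codon 134, listed as M134L and M134K, ATG became CAG and encoded M134Q. The depth there was 35 reads in O48, 24 or 25 in ΔDSM-O48-1 and 22 in ΔDSMD-O48-2, with no reference read. In C2cd4d codon 58, listed as R58P and as synonymous R58, CGG became CCA and encoded R58P.

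Outside these families, Nup210l, a relative of a nuclear pore membrane protein, held 12 fixed substitutions, of which 8 were nonsynonymous and 4 synonymous. L22H had 36, 19 and 30 reads and A19T had 32, 20 and 33, with no reference read at either. The others were I1084V, N1528S, N1537D, K1652E, V1745I and T1843I. Pogz, a zinc finger protein that binds heterochromatin proteins, also held 12, of which 8 were in the 3′ UTR, 4 were synonymous and 0 were nonsynonymous. C2cd4d held 7, among them L76I, I249V and S268G besides R58P. Cingulin (Cgn), a tight junction protein, held 7 with A1034P, Q647R and N238Y as its nonsynonymous changes, and 8 mixed-allele positions.

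Further genes held single nonsynonymous changes in curated coding sequences: Rab13 K196N, in a small GTPase of tight junctions, Tuft1 T91I and Slc27a3 R141G. At Rab13 K196N the lines had 28, 26 and 30 reads, all with the alternate base. The natriuretic peptide receptor Npr1 held 6 fixed substitutions and Selenbp1 4 without a nonsynonymous one. Selenbp1 G463 had 2 reference reads among 37 in O48, 3 among 34 in ΔDSM-O48-1 and 7 among 38 in ΔDSMD-O48-2.

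Of the 159 fixed substitutions listed as coding, 128 lay in a curated RefSeq coding sequence and 115 had the same amino acid change there. Of the 13 that differed, 5 were in Flg2, 7 were in Cgn, where the amino acids were the same and the residue numbers were not, and 1 was in id51728. Of the 88 nonsynonymous changes, 68 lay in a curated coding sequence and 20 did not. The largest group of these 20 were 8 changes of id51621, which RefSeq annotates as the transcribed pseudogene BC021767. A further 3 lay in the Flg model, 3 in LOC100861857 and 2 in LOC676017, where RefSeq has no gene, 2 in the pseudogene Gm19739, 1 in Gm19869, in a RefSeq pseudogene exon, and 1 in the 3′ UTR of Rfx5.

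Of the 88 nonsynonymous changes, 45 had a BLOSUM62 score below 0, 18 a score of 0 and 25 a score above 0, with a median of -1. The lowest score, -3, was reached by 10: Nup210l L22H, Gm19739 L13P, LOC100861857 D34Y, Flg2 W1391R, Tdpoz4 L43P, Tdpoz3 V160G, Gm10696 D4Y, LOC676017 L150P, id51621 V653D and id51728 P632L. Of these, only the changes in Nup210l, Tdpoz4, Tdpoz3 and Gm10696 were the same in a curated RefSeq coding sequence. Gm10696 D4Y had 3 reference reads among 29 in O48, 4 among 38 in ΔDSM-O48-1 and 3 among 25 in ΔDSMD-O48-2. The other 3 had no reference read.

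Transitions, changes between A and G or between C and T, made up 184 of the 277 fixed substitutions, or 66.4% (60.5 to 72.0%). The share was 71.2% over the whole table, 75.4% from 85 to 90 Mb and 68.7% on chromosome 11 from 40 to 50 Mb. By the pyrimidine of the changed base pair, 92 were C to T, 92 T to C, 28 C to A, 23 C to G, 21 T to A and 21 T to G. Of the 92 C to T changes, 23 (25%, 16.6 to 35.1%) lay in a CG dinucleotide of the reference. Of the 140 mixed-allele positions, 60.7% (52.1 to 68.9%) were transitions.

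The fixed substitutions came in clusters. The median distance between neighbours was 242 bp, 63 had another within 10 bp, 150 within 100 bp and 226 within 1000 bp. The first lay at position 90079540, in the 5′ UTR of Tpm3, and the last at 94984775, in Pi4kb. Between Pglyrp4 and Sprr2b no fixed substitution lay over 1575831 bp, where RefSeq has 10 protein-coding genes with 18.1 kb of curated exons. These include Lor, the gene for loricrin, the main protein of the cornified envelope, and Sprr2a1, Sprr2a2 and Sprr2a3. The table held 3 positions of any kind there, among them 1 in Lor and 1 in Sprr2a1. Both had under 10 reads in at least 1 line. With no depth minimum, Lor and Sprr2a1 each held a fixed substitution. The genes of the 5 lists with a fixed substitution then numbered 23 in place of 21. All fixed substitutions were set against the length of curated exon in each Mb. They numbered 9.67 per 10 kb from 90 to 91 Mb, 0 from 91 to 92 Mb and 4.04 from 92 to 93 Mb. From 93 to 94 Mb they numbered 24.8 and from 94 to 95 Mb 12.2, against 12.1 over the stretch. The counts include fixed substitutions outside curated exons, such as 5 of Flg and 5 of id51470 between 93 and 94 Mb. Where such positions lie, the values overstate the rate in curated exons, 24.8 among them. The TD and POZ genes lie from 93 to 95 Mb.

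**Figure D3:**
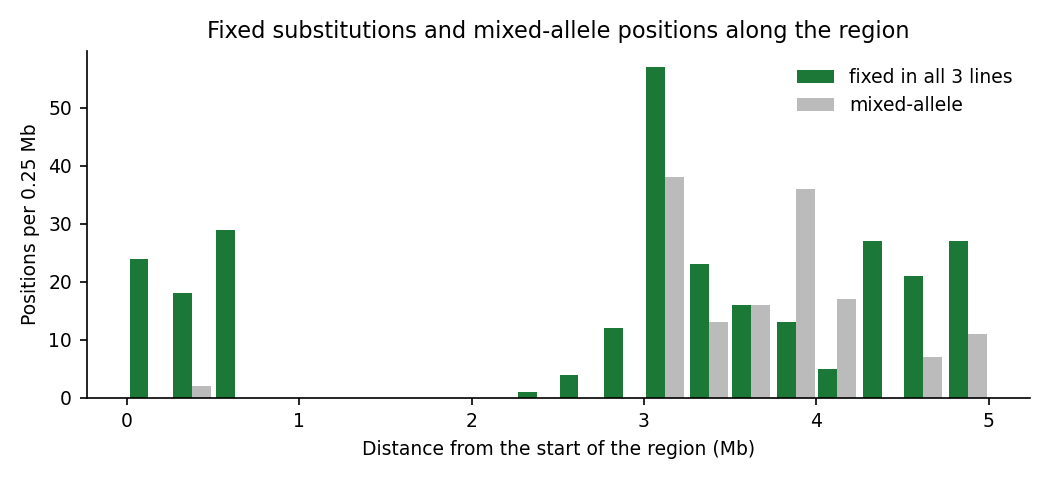
Number of fixed substitutions and of mixed-allele positions per 0.25 Mb, against the distance in Mb from the start of the stretch. Fixed substitutions peak at 57 in the bin with midpoint 3.12 Mb, which also holds 38 mixed-allele positions, and 6 bins in a row hold none of either kind.

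The stretch ends near the end of a longer run on chromosome 3. Chromosome 3 held 784 fixed substitutions, of which 485 lay before the stretch, 479 of them from position 74814858 on. After the stretch came 22, of which 19 lay between 95 and 97 Mb, the last of these at 96854557, and 3 lay beyond. Beyond 97 Mb the table had 37 mixed-allele positions. From 85 to 90 Mb, 309 of 339 positions (91.2%) met the rule for fixed substitutions, and on chromosome 11 from 40 to 50 Mb 335 of 362 (92.5%), both above the 52.1% of the stretch described here.

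**Figure D4:**
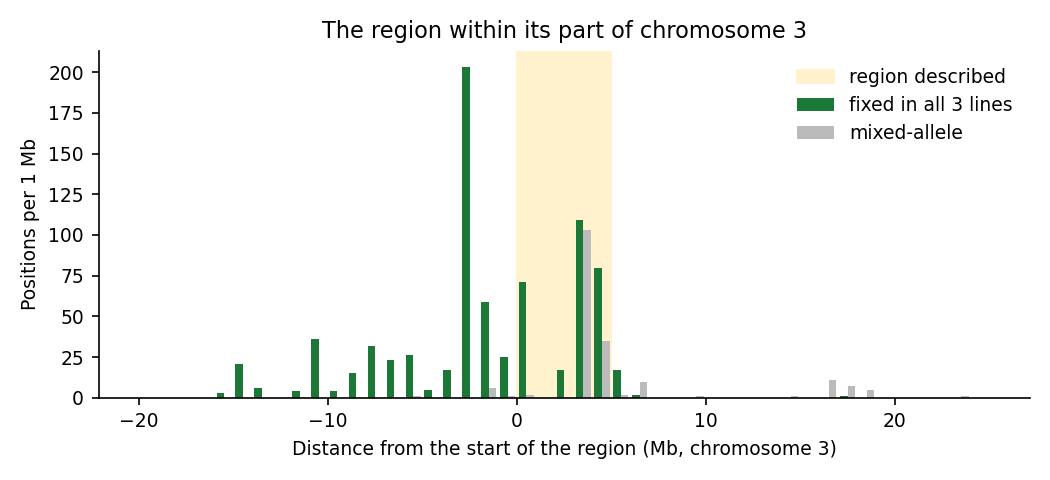
Number of fixed substitutions and of mixed-allele positions per 1 Mb of chromosome 3, against the distance in Mb from the start of the stretch (shaded). Fixed substitutions reach 203 per Mb in the bin that starts 3 Mb before the stretch and 109 inside it, and fall to 17 and 2 in the 2 bins after it.

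The positions of the stretch outside the rule were 140 of mixed alleles and 115 with under 10 reads or no genotype in at least 1 line. Of the 140, 92 lay in TD and POZ genes and 26 in Flg or Flg2, and 136 lay in one of 12 genes that held fixed substitutions as well. By listed effect, 61 were nonsynonymous, 44 synonymous, 19 in 3′ UTRs, 10 in 5′ UTRs, 4 stop-gain and 2 start-gain. Of the 115 with few reads, 37 had no genotype in at least 1 line, and 76 had a share of 0.8 or more in each line with reads. By gene, positions with few reads or no genotype numbered 23 in Tdpoz1, 19 in Flg, 14 in id51470 and 11 in Gm9107. Their effects are not in the counts of fixed substitutions.

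Read counts at the fixed substitutions were close between the lines. O48 had 8182 reads there in all, ΔDSM-O48-1 had 8286 and ΔDSMD-O48-2 had 7923. Depth was 10 to 72 (median 28.0), 10 to 73 (median 29.0) and 10 to 66 (median 28.0), against medians of 32.0, 33.0 and 31.0 at the fixed substitutions elsewhere. Reference reads made up 0.990% (0.787 to 1.23%) in O48, 0.761% (0.585 to 0.972%) in ΔDSM-O48-1 and 0.669% (0.502 to 0.874%) in ΔDSMD-O48-2. At 242 of the 277 positions no line had a reference read, and at 262 all lines had a homozygous alternate genotype. At the median depth, 0 reference reads allow a share of up to 10.7, 10.3 and 10.7% in the 3 lines, and at 10 reads a share of up to 30.0%.

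Over the 3 lines, 197 reference reads lay at 35 positions. Tdpoz4 had 94 of them at 5 positions and Gm4858 24 at 13. The 3 closest to the limit inside the rule were Flg2 C93203843A (80.8, 94.4 and 95% alternate reads in O48, ΔDSM-O48-1 and ΔDSMD-O48-2), Gm9125 G94048421C (89.7, 81.1 and 94.3%) and Tdpoz4 C93797331T (81.5, 81.4 and 82.5%). The 3 closest outside were Tdpoz4 A93796923G (81.9, 83.1 and 79.5%), Gm4858 G93073628A (78.8, 76.9 and 76.2%) and Gm9125 G94054845A (73.3, 80 and 78.6%). All 6 lie in filaggrin or TD and POZ genes. The next one inside the rule, Selenbp1 G94944538A (94.6, 91.2 and 81.6%), does not.

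**Figure D5:**
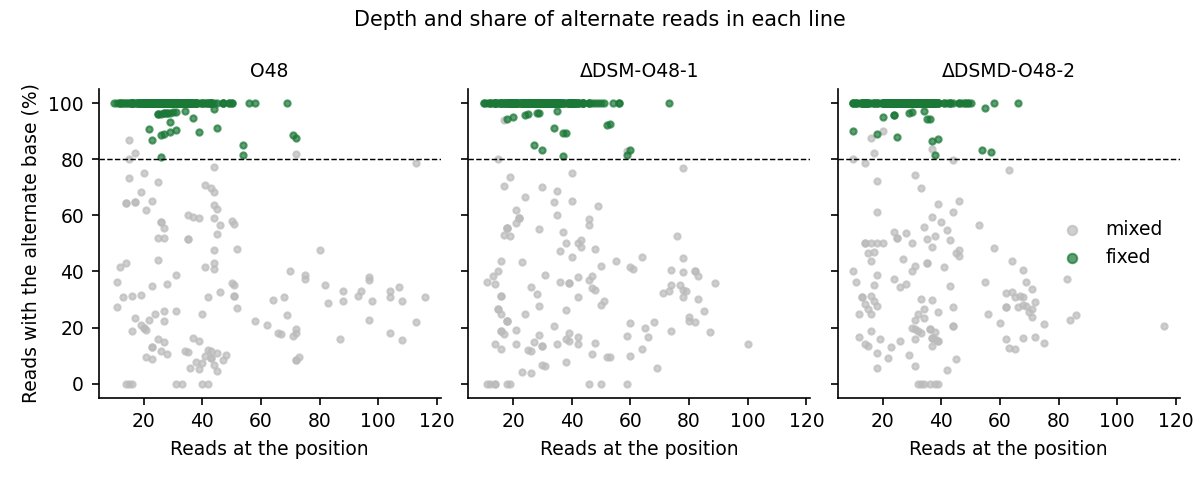
Share of reads with the alternate base (vertical axis, percent) against the number of reads at the position (horizontal axis) in each of the 3 lines, for the 277 fixed substitutions (green) and the 140 mixed-allele positions (grey), with a dashed line at 80%. Most fixed substitutions sit at 100%, and the fixed substitutions have at most 73 reads while mixed-allele positions reach 116.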

How the data were processed

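The submitters' processing notes name CASAVA 1.8.2, BWA 0.7.12, SAMtools, Picard, GATK and the build mm10, without their order or settings. The authors deposited 1 table of exonic single-nucleotide variants of the 3 libraries, with 1 entry per transcript. Deposited read counts, in total and with the reference base, are whole numbers without normalization, and alternate reads are given likewise, joined by commas where a position has several alternate bases. The deposited quality score per site was used only to describe the table. Allele fraction and genotype quality were not used.

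Shares were computed as alternate over reference plus alternate reads. Each position was given the listed effect of highest impact. Positions were annotated again from RefSeq, curated transcripts before models, on GRCm38.p6, and codons with a pair of fixed bases were translated together. With 1 library per line, no test was made. Intervals of shares are 95% Clopper-Pearson intervals (exact), and for a count of 0 the limit is 3 counts of the total. Both cover counting error only. The fixed substitutions and the gene lists were chosen with earlier results of these data known. Named by rule were genes with a stop, start or splice change, listed genes with a nonsynonymous change, the 10 genes with most fixed substitutions, the 10 lowest BLOSUM62 scores and up to 10 genes with the lowest shares. Other genes, such as the S100 genes, Cgn, Rab13 and Tpm3, were chosen for naming with their values in view. The alternatives were other depths and shares, genotypes, leaving out a line, close neighbours, the first listed entry and the receptor genes kept. The selection was tested on simulated data. The tools were Biopython 1.88, matplotlib 3.10.9, scipy 1.17.1, numpy 2.4.6 and pandas 2.3.3 in Python 3.11.15.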

Additional observations from a re-analysis of the deposited data

How the results depend on the processing

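Of 98 values of 7 results under 14 alternatives, 89 stayed within 1.5 times the value given (counts) or within its interval (shares). A depth of at least 20 reads left 56 nonsynonymous substitutions in place of 88, and 6.51% of the fixed substitutions of the table in the stretch in place of 7.36%, which was 8.29% with no depth minimum. Leaving out 2 kinds of genes was chosen after seeing the data. Without the TD and POZ family, 55 nonsynonymous substitutions and 5.32% remained. Without genes of the stretch that hold a mixed-allele position, 170 fixed substitutions remained, with 40 nonsynonymous, 37 synonymous and 4.65% of the table. In both cases only genes of the stretch were left out, so the percent of the table was bound to fall. Under the other alternatives the count of 277 ranged from 208, without positions that have a listed neighbour within 10 bp, to 322, with no depth minimum, and was 283 to 285 with a line left out. No paired analysis was possible because each line has 1 library. At 10 reads, a share of reference reads under 30.0% cannot be told from 0. Genes without a listed position may lack variants or lack reads, and copies of a gene cannot be told apart by these counts.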
